A study of Mus musculus with 9 samples.

Results

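The genes described here are 31 genes of fatty acid uptake and beta-oxidation, measured by RNA-seq in mouse left ventricle. They were chosen by name, as the rows whose gene symbol equalled 1 of 31 listed symbols, so 31 of the 20634 genes in the deposited tables belong to the set. All 31 had enough counts to be tested. They fall into 5 roles: 6 genes of lipid uptake, activation and mobilisation, 6 of the carnitine shuttle, 9 of the mitochondrial beta-oxidation spiral, 7 auxiliary, peroxisomal and thioesterase enzymes, and 3 of the electron transfer flavoprotein.

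The adult heart takes most of its energy from long-chain fatty acids. Lipoprotein lipase frees them at the capillary wall, membrane and cytosolic carriers bring them into the myocyte, and acyl-CoA synthetase activates them. Carnitine carries the acyl group across the mitochondrial membranes, a spiral of dehydrogenation, hydration, dehydrogenation and thiolysis then shortens the chain, and the electron transfer flavoprotein passes the electrons on to the respiratory chain. In failing hearts these genes are widely studied as a sign of a shift in fuel use.

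The series crossed genotype with treatment in C57BL/6 mice aged 6 months, with 3 KO ifetroban, 2 KO vehicle, 2 WT ifetroban and 2 WT vehicle libraries. KO mice lack delta-sarcoglycan, the product of Sgcd, a part of the dystrophin-associated complex that anchors the muscle membrane, and WT mice are wild type. Ifetroban, a blocker of the thromboxane-prostanoid receptor, was given in drinking water at 25 mg/kg/day starting at weaning, and vehicle mice drank normal water. All groups had running wheels at intervals, and hearts were flushed with buffer before the left ventricle was taken, so the RNA is that of whole tissue. The labels of KO ifetroban replicate 1 disagree: ifetroban stands in the title and in the source name, while vehicle stands in the treatment entry. It was analysed as ifetroban, and some results are given also with it counted as vehicle. The labels do not say that replicates came from separate animals, so the p-values measure only the spread between these samples, which may be technical.

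Library totals were 21510263 to 30182955 counts. Longer transcripts lay lower, relative to their mean level, in 4 libraries, by a comparison over 13051 protein-coding genes (KO ifetroban replicate 1, both KO vehicle libraries and the library labelled WT vehicle replicate 1, with Spearman's rho across genes of -0.52 to -0.40). In the other 5 libraries they lay higher (0.38 to 0.43). These are called negative-slope and positive-slope libraries here. Sgcd measured 7.30, 12.9 and 13.3 CPM (counts scaled to library size) in KO ifetroban and 9.64 and 8.63 in KO vehicle, against 23.7 and 23.5 in WT ifetroban and 8.36 and 20.9 in WT vehicle. The library labelled WT vehicle replicate 1, at 8.36 CPM, thus lay within the KO range. The 4 lowest Sgcd values were those of the 4 negative-slope libraries. The deposited value covers the whole gene, so it does not by itself check the knockout. Another gene, Ankrd1, measured 833.2 CPM in the library labelled WT vehicle replicate 1 and 634.3 to 809.2 CPM in the other WT libraries. In KO it measured 1984 to 2749 CPM. Whether the label of that WT vehicle library is right was not tested. A result is therefore given also with the library labelled WT vehicle replicate 1 left out where this turns its direction or moves it by over 1.5 times. Counts of genes at an unadjusted p are given without it only for genotype over both treatments, where 3 WT libraries remain. All 14 cardiomyocyte markers listed were present in every group.

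Per kilobase of transcript, the levels of the 31 genes spanned more than 2 orders of magnitude. The highest was Lpl, lipoprotein lipase, with a mean of 1442 CPM per kilobase, and the next were Fabp3, the heart fatty acid-binding protein, at 1244 and Ech1, a dienoyl-CoA isomerase, at 588. The Fabp3 level leaves out reads assigned to its near-identical copy, described below, which held more counts in every library. The order of Lpl and Fabp3 is therefore uncertain. The lowest were Cpt1a, the liver-type carnitine palmitoyltransferase, at 10.2 CPM per kilobase and Ehhadh, a peroxisomal bifunctional enzyme, at 4.002. The muscle-type enzyme Cpt1b had 173.6 CPM per kilobase. Even Ehhadh had at least 239 counts in every library.

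**Figure D1:**
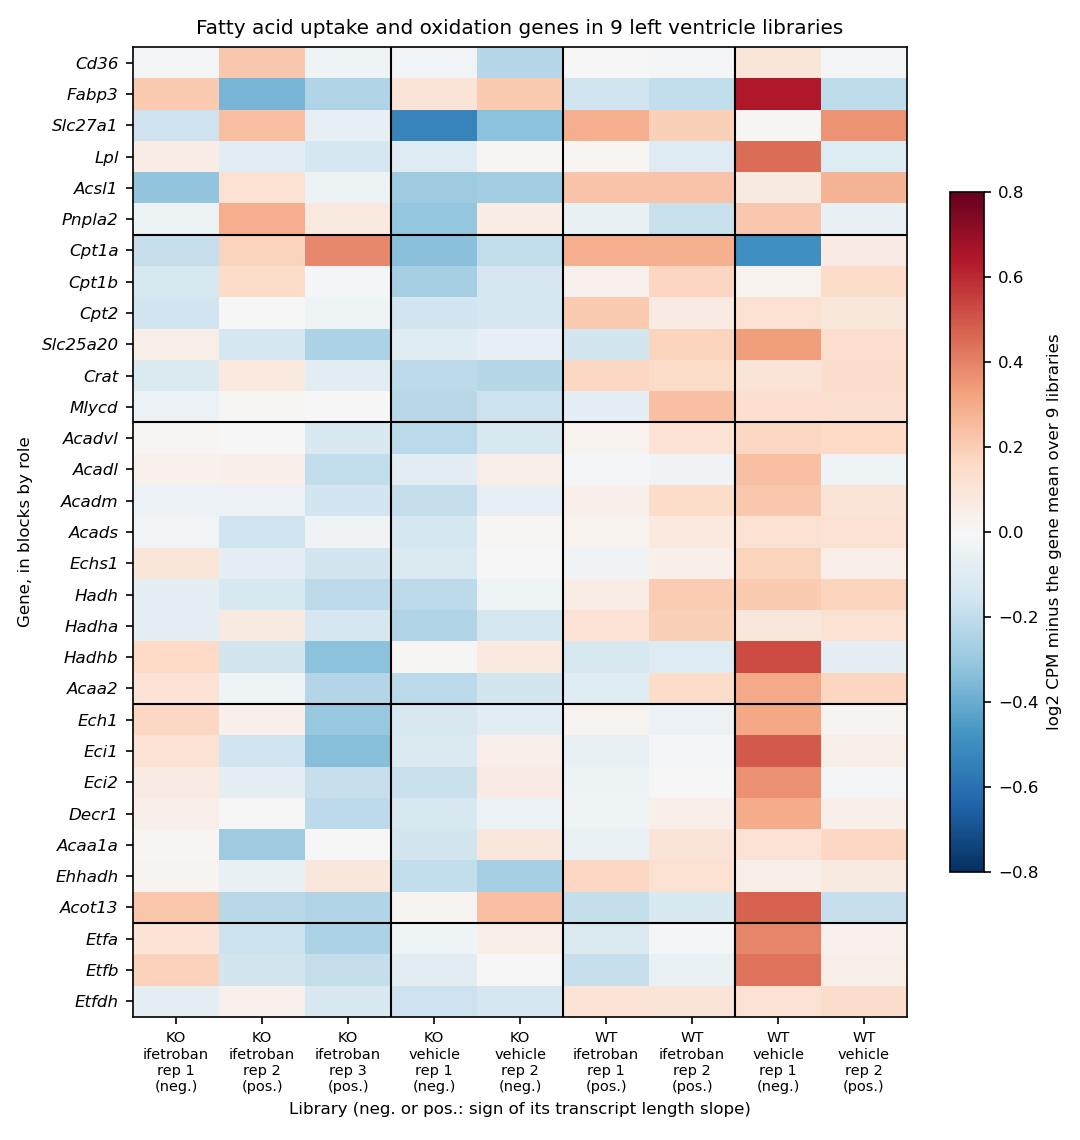
Heat map of the 31 genes (rows, in blocks by role) in the 9 libraries (columns), coloured by log2 CPM minus the gene's mean over the 9 libraries, with the sign of each library's transcript length slope under its name. In the KO vehicle columns 28 and 19 of the 31 genes lie below their means, while in the column of the library labelled WT vehicle replicate 1 the median gene lies 0.207 above its mean and Cpt1a alone lies below its mean.

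For a pair of members the deposited count depends on how reads were assigned, because a near-identical processed copy has counts of its own. Fabp3 (chromosome 4, 130308595 to 130315463 in mm10, plus strand, protein-coding) held 21013 to 30459 counts per library, and its copy Fabp3-ps1 on chromosome 10 held 33406 to 41844. Over the 402 bases of coding sequence the copies differ at 3. The stretch shown covers positions 255 to 374 of the coding sequence, counted from 1 at its first base, in GRCm38, with the bases that differ between the copies in capitals.
Fabp3: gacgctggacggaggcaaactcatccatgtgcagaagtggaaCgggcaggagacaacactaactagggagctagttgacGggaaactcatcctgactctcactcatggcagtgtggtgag
Fabp3-ps1: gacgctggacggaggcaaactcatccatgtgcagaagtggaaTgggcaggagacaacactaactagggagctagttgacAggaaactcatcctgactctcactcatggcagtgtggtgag
Hadhb (chromosome 5, 30155248 to 30184593, plus strand), which encodes the beta subunit of the mitochondrial trifunctional protein, held 10785 to 15542 counts, and its copy Gm13910 on chromosome 2 held 19941 to 31920. Those copies differ at 3 of 1428 coding bases. Positions 141 to 260 of the coding sequence are shown for the same reason, with the differing base in capitals.
Hadhb: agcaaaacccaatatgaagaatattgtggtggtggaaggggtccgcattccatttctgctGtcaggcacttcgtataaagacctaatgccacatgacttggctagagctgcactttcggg
Gm13910: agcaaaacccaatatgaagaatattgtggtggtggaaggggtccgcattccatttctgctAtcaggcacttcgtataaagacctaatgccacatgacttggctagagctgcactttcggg
The longest run without a difference is 256 bases for Fabp3 and 685 bases for Hadhb, so a read that lies within such a run cannot be placed by its letters. Fabp3 made up 40.85% to 42.13% of the sum with its copy in the 4 negative-slope libraries and 37.38% to 38.64% in the positive-slope ones. Hadhb made up 38.15% to 42.35% in the negative-slope libraries and 32.48% to 33.12% in the positive-slope ones. The highest share of either gene was in the library labelled WT vehicle replicate 1. Each level of Fabp3 and Hadhb is therefore uncertain, and changes of the sum of gene and copy are given beside those of the gene.

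**Figure D2:**
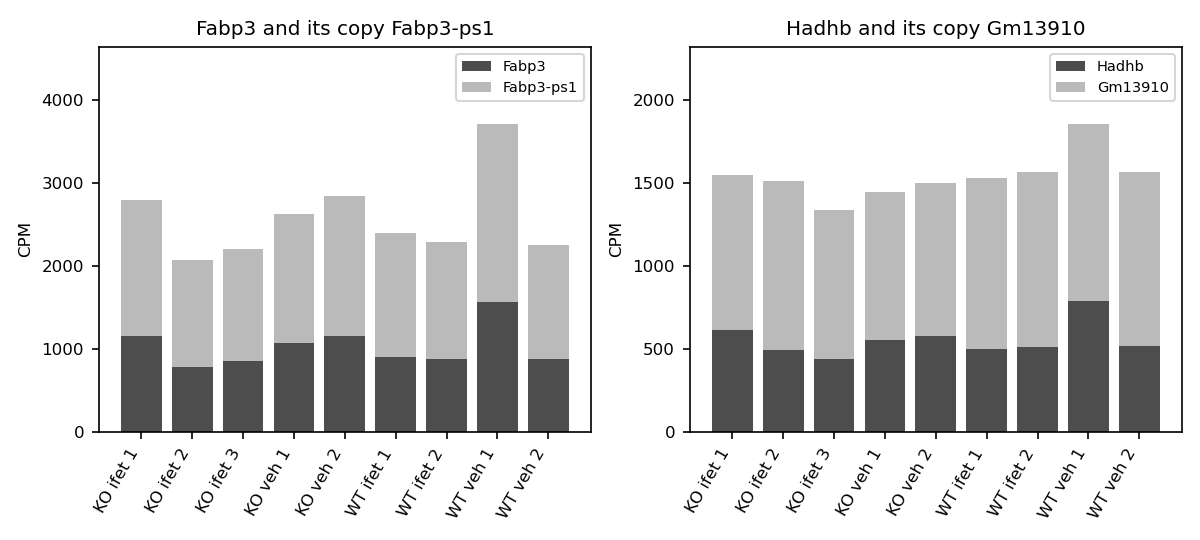
Stacked bars of TMM-scaled CPM for each gene (dark) and its near-identical copy (light) in each library, for Fabp3 on the left and Hadhb on the right. The copy holds more counts than the gene in every library, and the sum is highest in the library labelled WT vehicle replicate 1, at 3709 CPM for Fabp3 and 1854 CPM for Hadhb.

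The first comparison asked how loss of delta-sarcoglycan bears on these genes in mice on plain water. All 31 genes had a lower fitted level in KO vehicle than in WT vehicle ventricle, with a median log2 change of -0.28, against -0.02 over all genes tested, of which 52.9% were below 0. No member passed the threshold (edgeR quasi-likelihood test, Benjamini-Hochberg adjusted p under 0.05 over 15549 genes), a call that 0.0515% of all genes reached. The values ranged between -0.62 for Slc27a1 and -0.04 for Acot13. In 22 of the 31 both KO vehicle libraries lay below both WT vehicle libraries, an order found in 17.6% of all genes, and in none did they lie above (18.3%). At an unadjusted p under 0.05 there were 10 members, all lower in KO (2.69% of all genes were lower at that level). With the library labelled WT vehicle replicate 1 left out, fewer members and more of all genes, in either direction, reached that level. WT vehicle is then 1 library. DESeq2 and limma-voom also called no member after adjustment. In bulk tissue, fewer cells of a type and less RNA per cell cannot be told apart.

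The size of this shift depended on the library labelled WT vehicle replicate 1. Its members had a median deviation of 0.207 from their means on the log2 scale and a summed level of 24050 CPM, against 17520 to 19770 CPM in the other 8 libraries. Lpl alone gave 8043 CPM of that sum, against 5341 to 6147 CPM in the other 8. With it left out, WT vehicle is 1 library, the median change was -0.18 and 26 of 31 genes were below 0. By role the vehicle medians were then -0.08 for uptake and activation (-0.22 with it), -0.32 for the carnitine shuttle (-0.30), -0.23 for the spiral (-0.29), -0.12 for the auxiliary enzymes (-0.26) and -0.08 for the electron transfer flavoprotein (-0.28). The genes above 0 were then Fabp3 (0.36), Acot13 (0.33), Hadhb (0.13), Lpl (0.07) and Acadl (0.02), while Slc27a1 (-0.78) and Acsl1 (-0.55) were further below it.

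**Figure D3:**
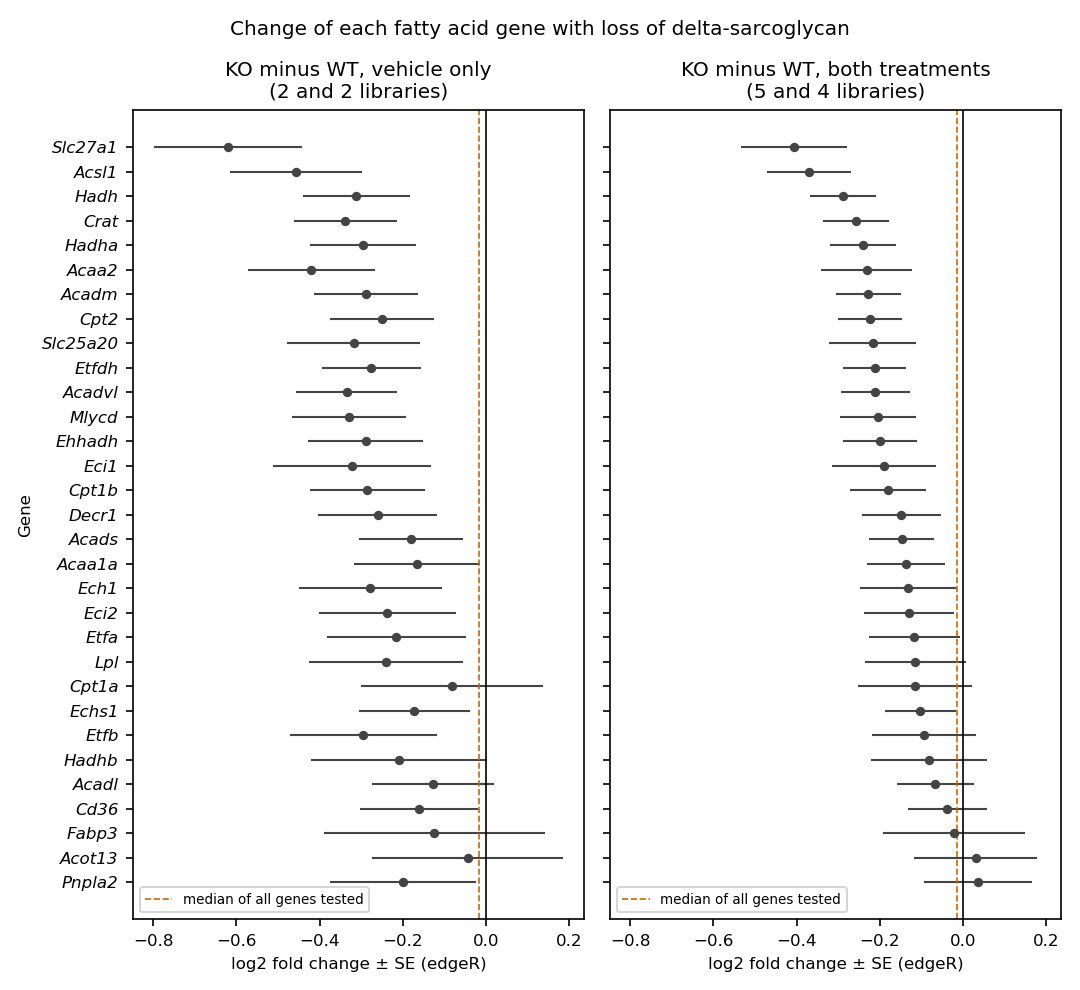
Fitted log2 fold change of each gene in KO relative to WT (points) with its SE (bars), on the left for vehicle alone and on the right over both treatments, with the median of all genes tested as a dashed line. All 31 points lie below 0 on the left and 29 of 31 on the right, and none passed the adjusted threshold in either.

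Among the genes of uptake and activation, Slc27a1 and Acsl1 had the largest negative changes. Over both treatments every gene of this role overlapped between genotypes. Under vehicle Slc27a1, Acsl1 and Cd36 did not overlap, and Lpl, Fabp3 and Pnpla2 did. Slc27a1 (chromosome 8, 71568927 to 71586708, plus strand) encodes fatty acid transport protein FATP1. It measured 93.1, 123.2 and 99.9 CPM in KO ifetroban and 72.1 and 83.2 CPM in KO vehicle, against 127.9 and 119.2 CPM in WT ifetroban and 104.9 and 133.6 CPM in WT vehicle. The KO vehicle libraries were the lowest of the 9, and the KO ifetroban values reached into the WT range. The log2 change was -0.62 ± 0.18 (SE) under vehicle (edgeR, adjusted p = 0.375) and -0.41 ± 0.13 over both treatments (adjusted p = 0.144).

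Acsl1 (chromosome 8, 46471041 to 46536051, plus strand), the main long-chain acyl-CoA synthetase of the heart, measured 617.6, 836.2 and 747.4 CPM in KO ifetroban and 633.2 and 633.6 CPM in KO vehicle. It measured 901.0 and 902.9 CPM in WT ifetroban and 808.3 and 930.2 CPM in WT vehicle. KO lay below WT within each treatment, and 1 KO ifetroban library exceeded the lower WT vehicle library. The log2 change was -0.46 ± 0.16 under vehicle (edgeR, adjusted p = 0.476), -0.30 ± 0.14 under ifetroban (adjusted p = 0.583) and -0.37 ± 0.10 over both (adjusted p = 0.0975).

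Cd36 (chromosome 5, 17781690 to 17888801, minus strand), the membrane fatty acid translocase, measured 1333, 1558 and 1307 CPM in KO ifetroban and 1321 and 1141 CPM in KO vehicle, against 1341 and 1333 CPM in WT ifetroban and 1429 and 1324 CPM in WT vehicle. Over both treatments the genotypes overlapped, with a log2 change of -0.04 ± 0.09 (edgeR, adjusted p = 0.881), and 0.02 when the library labelled WT vehicle replicate 1 was left out. Under vehicle KO lay below WT by as little as 1321 against 1324 CPM. Lpl (chromosome 8, 68880491 to 68907448, plus strand) measured 6147, 5546 and 5341 CPM in KO ifetroban and 5479 and 5958 CPM in KO vehicle, against 5958 and 5478 CPM in WT ifetroban and 8043 and 5468 CPM in WT vehicle. The library labelled WT vehicle replicate 1 stood above the other 8, which spanned 5341 to 6147 CPM. The Lpl change was -0.24 ± 0.18 under vehicle (edgeR, adjusted p = 0.833) and 0.07 without that library.

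Fabp3 measured 1158, 774.7 and 848.1 CPM in KO ifetroban and 1073 and 1158 CPM in KO vehicle, against 897.2 and 875.0 CPM in WT ifetroban and 1562 and 870.6 CPM in WT vehicle. Its 4 highest libraries were the 4 negative-slope ones, of both genotypes. Summed with its copy, its log2 change over both treatments was -0.05 ± 0.15 (edgeR, adjusted p = 0.891), beside the -0.02 ± 0.17 of Fabp3 alone, which was 0.19 with the library labelled WT vehicle replicate 1 left out. Under vehicle the sum gave -0.13 ± 0.23 and Fabp3 alone -0.12 ± 0.27, or 0.36 without that library. The sum was not fitted without it. In CPM the sum was 2622 and 2836 in KO vehicle, against 3709 in that library and 2253 in WT vehicle replicate 2. Pnpla2 (chromosome 7, 141455198 to 141460743, plus strand), the adipose triglyceride lipase that mobilises stored fat, measured 317.3, 399.4 and 344.4 CPM in KO ifetroban and 263.4 and 340.2 CPM in KO vehicle, against 313.2 and 288.3 CPM in WT ifetroban and 379.5 and 313.8 CPM in WT vehicle. It was the 1 member whose KO ifetroban libraries all lay above WT ifetroban (14% of all genes did), at 0.23 ± 0.16 (edgeR, adjusted p = 0.724).

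All 6 genes of the carnitine shuttle had lower fitted levels in KO under either treatment, with medians of -0.30 under vehicle and -0.14 under ifetroban. Cpt1b (chromosome 15, 89416405 to 89425863, minus strand), the muscle form of the enzyme that commits acyl groups to the mitochondrion, measured 458.5, 554.2 and 497.7 CPM in KO ifetroban and 416.6 and 456.3 CPM in KO vehicle, against 512.0 and 562.7 CPM in WT ifetroban and 510.5 and 553.3 CPM in WT vehicle. KO vehicle lay below all WT libraries, and KO ifetroban overlapped them. The change was -0.29 ± 0.14 under vehicle (edgeR, adjusted p = 0.694). Of its 50-base words 78.6% also occur in Gm44502, a gene annotated over the same stretch and strand, so reads of both cannot be told apart there. Gm44502 is absent from the deposited tables.

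Cpt1a (chromosome 19, 3323301 to 3385732, plus strand), the liver form, measured 37.9, 48.9 and 56.4 CPM in KO ifetroban and 34.3 and 37.6 CPM in KO vehicle, against 52.8 and 52.6 CPM in WT ifetroban and 30.7 and 45.2 CPM in WT vehicle. Its lowest 4 libraries were the 4 negative-slope ones, and the lowest of all was the library labelled WT vehicle replicate 1. Its change was -0.08 ± 0.22 under vehicle (edgeR, adjusted p = 0.959), and -0.33 without that library.

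The other 4 shuttle genes are Cpt2, the inner-membrane transferase, Slc25a20, the carnitine-acylcarnitine carrier, Crat, carnitine acetyltransferase, and Mlycd, which removes the CPT1 inhibitor malonyl-CoA. Under vehicle they measured -0.25 to -0.34, Slc25a20 at -0.32, or -0.21 with the library labelled WT vehicle replicate 1 left out. Crat was below WT in all 5 KO libraries (389.2 to 481.0 CPM, against 487.9 to 510.2 CPM in WT), with a change of -0.26 ± 0.08 over both treatments (edgeR, adjusted p = 0.136). So was Cpt2, with 172.3 to 191.4 CPM in KO and 201.1 to 222.0 CPM in WT.

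Within the beta-oxidation spiral all 9 genes had lower fitted levels in KO over both treatments, with a median of -0.21 and none past the threshold. Leaving out the library labelled WT vehicle replicate 1 left 7 of 9 below 0, with Acadl at 0.01 and Hadhb at 0.08. The 4 acyl-CoA dehydrogenases, which open each round for chains of falling length, were Acadvl (-0.21), Acadl (-0.07), Acadm (-0.23) and Acads (-0.15). Acadm, the medium-chain enzyme (chromosome 3, 153922357 to 153944632, minus strand), measured 864.3, 865.7 and 802.5 CPM in KO ifetroban and 784.8 and 853.2 CPM in KO vehicle, against 918.5 and 990.5 CPM in WT ifetroban and 1038 and 961.4 CPM in WT vehicle. Every KO library lay below every WT library. The change was -0.23 ± 0.08 (edgeR, adjusted p = 0.185).

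Hadh (chromosome 3, 131233419 to 131272101, minus strand), the 3-hydroxyacyl-CoA dehydrogenase of shorter chains, measured 380.8, 365.1 and 345.1 CPM in KO ifetroban and 345.7 and 390.2 CPM in KO vehicle. In WT it measured 416.9 and 460.4 CPM under ifetroban and 461.2 and 452.5 CPM under vehicle. The genotypes did not overlap, and the change was -0.27 ± 0.12 under ifetroban and -0.31 ± 0.13 under vehicle. Over both treatments the change was -0.29 ± 0.08 (edgeR, adjusted p = 0.0975), together with Acsl1 the smallest adjusted p of the 31.

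Hadha and Hadhb encode the alpha and beta subunits of the trifunctional protein, which carries out the last 3 steps for long chains. The genes lie head to head, with 85 bases between their deposited ends and 272 bases between their RefSeq starts. Hadha (chromosome 5, 30118304 to 30155162, minus strand) measured 1008, 1112 and 967.4 CPM in KO ifetroban and 896.3 and 961.5 CPM in KO vehicle, against 1149 and 1207 CPM in WT ifetroban and 1126 and 1155 CPM in WT vehicle. All KO libraries lay below all WT libraries, at -0.24 ± 0.08 (edgeR, adjusted p = 0.164). Hadhb measured 611.1, 493.9 and 435.3 CPM in KO ifetroban and 549.8 and 577.2 CPM in KO vehicle, against 499.7 and 509.1 CPM in WT ifetroban and 785.0 and 518.0 CPM in WT vehicle. It overlapped between genotypes, at -0.08 ± 0.14, and at -0.14 ± 0.09 when summed with its copy (edgeR, adjusted p = 0.453). Under vehicle Hadhb measured -0.21 ± 0.21 and the sum -0.22 ± 0.14. Without the library labelled WT vehicle replicate 1 Hadhb measured 0.13 under vehicle, and the sum was not fitted. In CPM the sum was 1441 and 1500 in KO vehicle, against 1854 in that library and 1564 in WT vehicle replicate 2.

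The window at the Hadhb start is shown because it covers most of the bases between both starts. It spans 250 bases before to 50 bases after the Hadhb start, from RefSeq (GRCm38.p6), chr5:30155003-30155302, read on the Hadhb strand, and it holds no AGGTCA on either strand, so no capitals are used.
Hadhb promoter: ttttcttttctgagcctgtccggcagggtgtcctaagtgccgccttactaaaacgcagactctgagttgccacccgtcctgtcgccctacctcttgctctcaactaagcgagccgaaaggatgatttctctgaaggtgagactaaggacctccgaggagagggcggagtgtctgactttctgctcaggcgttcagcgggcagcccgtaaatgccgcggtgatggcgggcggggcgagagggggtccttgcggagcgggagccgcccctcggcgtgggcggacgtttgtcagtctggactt

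Acaa2 (chromosome 18, 74779197 to 74806207, plus strand), the mitochondrial thiolase, measured 657.0, 592.7 and 516.1 CPM in KO ifetroban and 522.5 and 547.3 CPM in KO vehicle, against 567.7 and 670.6 CPM in WT ifetroban and 748.0 and 683.0 CPM in WT vehicle. Vehicle groups did not overlap, and ifetroban groups did. The change was -0.42 ± 0.15 under vehicle and -0.07 ± 0.14 under ifetroban (edgeR, adjusted p = 0.511 and 0.901). The interaction, 0.35 ± 0.21, did not pass either. Echs1, a short-chain enoyl-CoA hydratase, measured -0.17 under vehicle, or -0.10 with the library labelled WT vehicle replicate 1 left out.

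**Figure D4:**
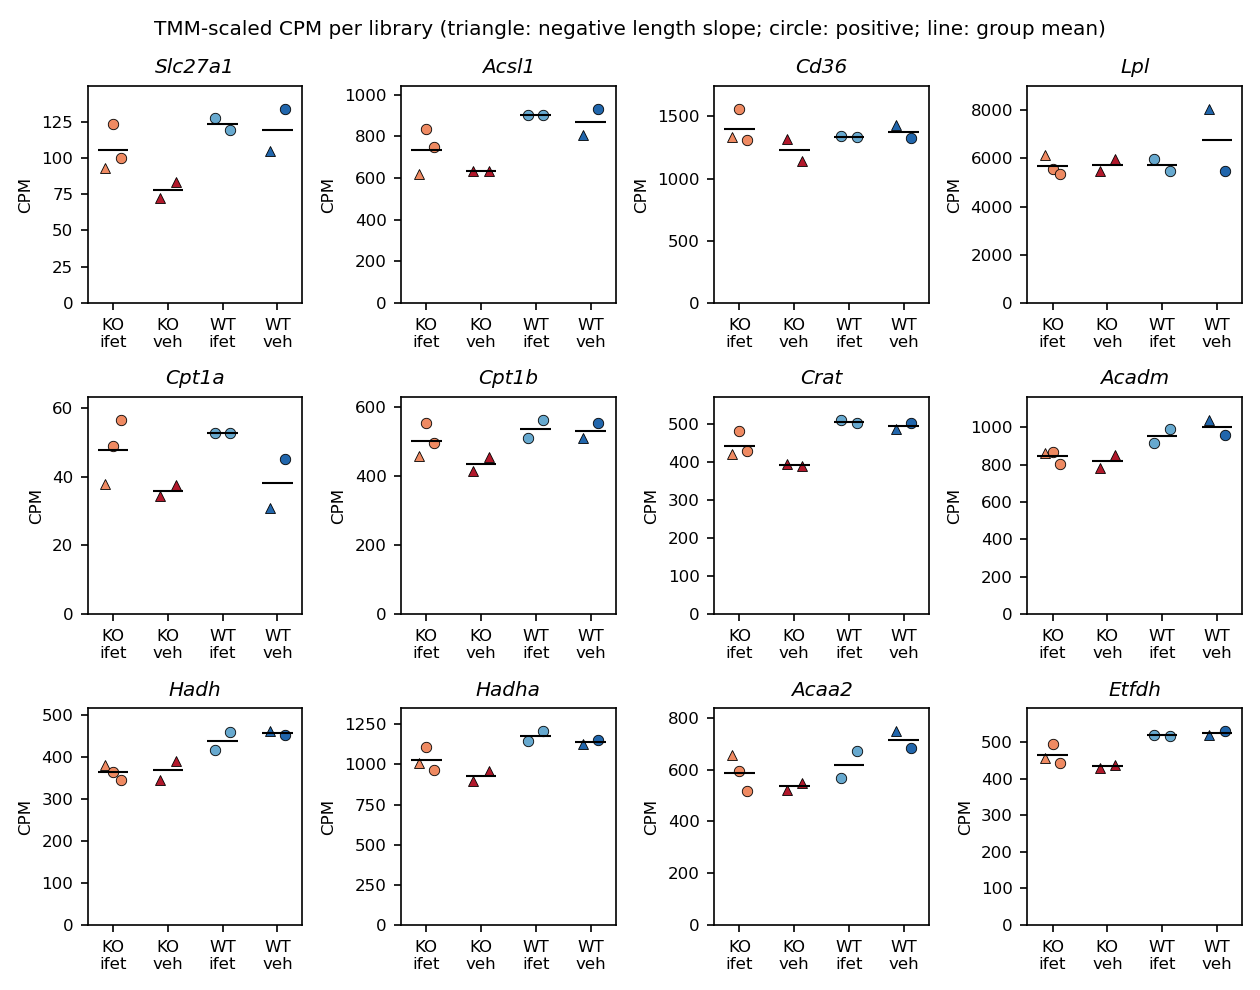
TMM-scaled CPM of 12 of the genes in each library, by group, with triangles for negative-slope libraries, circles for positive-slope libraries and a line at the group mean. Acadm, Crat, Hadh, Hadha and Etfdh show every KO point below every WT point, while Cd36, Lpl and Cpt1a overlap.

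The 7 auxiliary and peroxisomal genes had a median of -0.26 under vehicle and -0.14 over both treatments, and none reached an unadjusted p of 0.05 under vehicle. With the library labelled WT vehicle replicate 1 left out, these medians were -0.12 and -0.063. They are Eci1 and Eci2, enoyl-CoA isomerases for unsaturated chains, Ech1, Decr1, the 2,4-dienoyl-CoA reductase, Acaa1a, a peroxisomal thiolase, Ehhadh, and Acot13, an acyl-CoA thioesterase. Eci1 measured 200, 165.2 and 146.2 CPM in KO ifetroban and 170.3 and 190.5 CPM in KO vehicle, against 177.1 and 183.1 CPM in WT ifetroban and 260.1 and 191.0 CPM in WT vehicle. Within vehicle its KO libraries lay below WT by as little as 190.5 against 191.0 CPM. The vehicle changes were -0.32 ± 0.19 for Eci1 and -0.29 ± 0.14 for Ehhadh (edgeR, adjusted p = 0.757 and 0.685). For Eci1 the library labelled WT vehicle replicate 1 was the highest of the 9, and without it the vehicle change was -0.077. Acot13, with the shortest transcript of the set at 721 bases, measured -0.04 under vehicle and 0.03 over both, or 0.33 and 0.19 with that library left out. Reads of Acaa1a may include some of its paralogue Acaa1b, which had at most 6.74 counts in a library, and of Myd88 on the opposite strand, with at most 505 counts against at least 1284 for Acaa1a.

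Of the electron transfer flavoprotein genes, Etfa and Etfb encode its subunits and Etfdh the dehydrogenase that passes its electrons to ubiquinone. Etfdh (chromosome 3, 79603788 to 79629500, minus strand) measured 455.4, 493.1 and 441.7 CPM in KO ifetroban and 428.9 and 438.1 CPM in KO vehicle, against 518.6 and 517.2 CPM in WT ifetroban and 520.2 and 529.2 CPM in WT vehicle. The 4 WT libraries lay between 517.2 and 529.2 CPM, above all KO libraries. The change was -0.21 ± 0.08 (edgeR, adjusted p = 0.195). Etfb measured 482.5, 383.5 and 372.1 CPM in KO ifetroban and 400.2 and 424.6 CPM in KO vehicle, against 373.3 and 409.9 CPM in WT ifetroban and 573.2 and 438.4 CPM in WT vehicle. It did not overlap between the vehicle groups and did between the ifetroban groups, at -0.09 ± 0.12 over both (edgeR, adjusted p = 0.755). Its highest library was the one labelled WT vehicle replicate 1, and without it the change was 0.034 over both treatments and -0.083 under vehicle, against -0.29 with it. Etfa measured -0.12 ± 0.11 over both treatments with that library and -0.014 without it.

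Under ifetroban the median difference between genotypes lay nearer 0. KO ifetroban against WT ifetroban gave 25 of 31 values below 0 (52.2% of all genes) with a median of -0.09, and no member passed (0.0386% of all genes did). In 10 genes all KO ifetroban libraries lay below both WT ifetroban libraries (15% of all genes). At an unadjusted p under 0.05 there was 1 member, Hadh, lower in KO (3.12% of all genes were), and DESeq2 and limma-voom called none. The largest differences were Acsl1 (-0.30), Hadh (-0.27) and Pnpla2 (0.23).

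Over both treatments 29 of 31 genes were below 0 (53% of all genes), with a median of -0.15, and again none passed, where 363 of all genes did (2.33%, and 0.27% in the lower direction). At an unadjusted p under 0.05 there were 11 members, all lower in KO (6.74% of all genes). With the library labelled WT vehicle replicate 1 left out there were 7 such members, beside 3586 of 16083 genes in either direction. In 8 genes, Cpt2, Crat, Acadvl, Acadm, Acads, Hadh, Hadha and Etfdh, all 5 KO libraries lay below all 4 WT libraries, against 2.38% of all genes, and in none did they lie above (4.62%). When the library labelled WT vehicle replicate 1 was left out, these and Acsl1 did so (9 members, 8.19% of all genes) and none lay above (8.33%). The median was then -0.12 and 23 genes were below 0. DESeq2's Wald test called 7 members, all lower, where 1.69% of all genes were called lower: Slc27a1, Acsl1, Hadh, Crat, Hadha, Cpt2 and Etfdh, with adjusted p between 0.00776 and 0.0435. With limma-voom none was called.

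The comparison within each slope set used libraries of like length profile. Among the negative-slope libraries 30 genes were lower in all 3 KO libraries than in the WT library (33% of all genes), and Cpt1a was higher (31.9%). WT is 1 library there. Among the positive-slope libraries 16 genes were lower in both KO than in all 3 WT libraries (17.3% of all genes), and Pnpla2 was higher (14.8%). The same 16 were lower in both sets, against 8.99% of all genes. With the slope set as a term in the model, 2 members fell over both treatments (0.72% of all genes fell), Hadh by 0.32 ± 0.07 and Eci1 by 0.34 ± 0.08 on the log2 scale (edgeR, adjusted p = 0.0322 and 0.0461). Under vehicle that model called Etfb (-0.47, edgeR adjusted p = 0.0368) and Eci1 (-0.50, edgeR adjusted p = 0.0443), where 0.141% of all genes fell. The library labelled WT vehicle replicate 1 is the 1 negative-slope WT library and the highest of the 9 for both genes, and in the model of the 4 groups without it their vehicle changes were -0.083 for Etfb and -0.077 for Eci1. With a per-gene offset for transcript length and GC content, 10 members fell over both treatments (2.29% of all genes fell): Slc27a1, Acsl1, Cpt2, Acadvl, Acadm, Acads, Hadh, Acaa2, Eci1 and Etfdh, and the median was -0.26. With KO ifetroban replicate 1 counted as vehicle 2 members fell, Acsl1 and Hadh (edgeR, adjusted p = 0.0459 and 0.0431, 0.662% of all genes).

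Across the members, the difference between libraries of 1 group went with transcript length where the libraries had opposite slopes. Between KO ifetroban replicate 1 and the mean of replicates 2 and 3, Pearson's r with log2 length was -0.65 over 31 genes and Spearman's rho -0.52. Between the libraries labelled WT vehicle replicates 1 and 2 these were -0.59 and -0.54, with Fabp3 0.844 higher and Cpt1a 0.557 lower in replicate 1. Between libraries of like slope r was 0.17 for KO vehicle and 0.09 for WT ifetroban. The genes of a pair share their libraries, so these values describe the pair only. Both KO vehicle libraries have a negative slope and both WT ifetroban libraries a positive one. The library labelled WT vehicle replicate 1 has a negative slope and replicate 2 a positive one. KO ifetroban replicate 1 has a negative slope and replicates 2 and 3 a positive one. The genotype comparisons and the ifetroban comparisons therefore all set unlike mixes of slopes against each other.

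**Figure D5:**
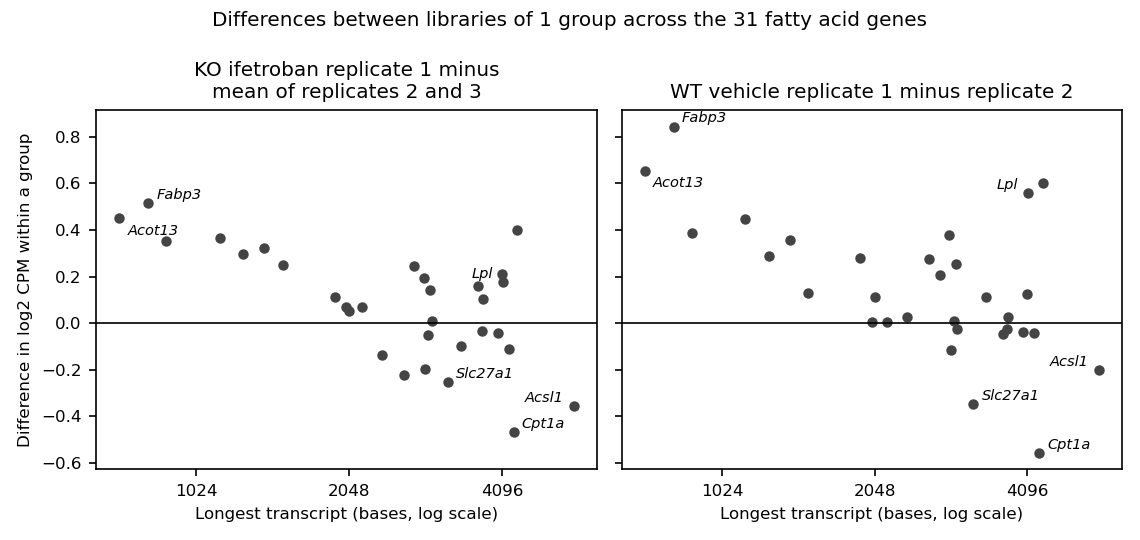
Difference in log2 CPM between libraries of 1 group for each of the 31 genes, against the length of its longest transcript (log scale), with KO ifetroban replicate 1 minus the mean of replicates 2 and 3 on the left and WT vehicle replicate 1 minus replicate 2 on the right. Short transcripts such as Fabp3 lie above 0 and the long transcripts of Acsl1 and Cpt1a below it in both panels. Lpl and Hadhb, with longest transcripts of 4115 and 4388 bases, lie above 0 in both.

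Ifetroban gave no member past the threshold in either genotype. In KO the median change was 0.04, with 19 genes above 0 (51.2% of all genes), and no gene of the 15549 passed (0%, edgeR, with none by DESeq2 or limma-voom either). The largest were Slc27a1 (0.44 ± 0.16), Cpt1a (0.41 ± 0.20) and Fabp3 (-0.27 ± 0.24, or -0.21 ± 0.21 summed with its copy), with Slc27a1 the 1 member at an unadjusted p under 0.05 (3.96% of all genes, edgeR, adjusted p = 0.862). In 9 genes, Slc27a1, Cpt1a, Cpt1b, Crat, Mlycd, Acadvl, Hadha, Ehhadh and Etfdh, all KO ifetroban libraries lay above both KO vehicle libraries (10.4% of all genes), and in none below (9.76%). With KO ifetroban replicate 1 counted as vehicle the median was -0.054. In that setting 6 members had an unadjusted p under 0.05 (edgeR), beside 3451 of the 15549 genes, and no member passed the threshold. With the slope set as a term the median was 0.15.

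In WT the median change with ifetroban was -0.11, with 23 genes below 0 (48.1% of all genes) and none past the threshold (0% of all genes, by edgeR, DESeq2 or limma-voom). The largest were Cpt1a (0.47 ± 0.22), Fabp3 (-0.46 ± 0.27) and Hadhb (-0.37 ± 0.21), and 0 members had an unadjusted p under 0.05 (2.25% of all genes). Summed with their copies Fabp3 measured -0.35 ± 0.23 and Hadhb -0.14 ± 0.14. In WT ifetroban the Fabp3 sum was 2393 and 2289 CPM, against 3709 and 2253 CPM in WT vehicle replicates 1 and 2. The Hadhb sum was 1529 and 1567 CPM, against 1854 and 1564 CPM. With the library labelled WT vehicle replicate 1 left out, which leaves 1 WT vehicle library, Cpt1a measured 0.21, Fabp3 0.012 and Hadhb -0.052, and the median was -0.052. WT ifetroban lay below WT vehicle in 12 genes (13.8% of all genes) and above it in 3 (17.6%), Cpt1a, Crat and Ehhadh. Over both genotypes the median was -0.03 with 18 genes below 0 (48.7% of all genes), and no gene passed by edgeR (0%). Leaving out that library gave a median of 0.023 with 13 genes below 0. DESeq2 called 2 genes, none of them a member. At an unadjusted p under 0.05 there was 1 member (7.96% of all genes), Cpt1a at 0.44 ± 0.14 (edgeR, adjusted p = 0.545). With KO ifetroban replicate 1 counted as vehicle there were 9 such members, beside 4327 of the 15549 genes, and the median was -0.064.

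The difference between the ifetroban effects, KO minus WT, was above 0 in 30 of 31 genes (53.2% of all genes), with a median of 0.19, and Cpt1a at -0.06 was the exception. No member and no other gene passed by edgeR, DESeq2 or limma-voom (0%), and 0 members had an unadjusted p under 0.05 (1.92% of all genes). The largest were Pnpla2 (0.43 ± 0.24), Slc27a1 (0.39 ± 0.24) and Etfb (0.37). Leaving out the library labelled WT vehicle replicate 1 gave a median of 0.10, with 26 genes above 0, Cpt1a at 0.21 and Etfb at 0.18. In that setting Fabp3, Acot13, Hadhb, Lpl and Acadl were below 0.

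Other genes of the pathway were measured for comparison. Of 27 tested genes of mitochondrial and peroxisomal oxidation outside the set, 24 were below 0 over both treatments in KO relative to WT, with a median of -0.16, and none passed. Of 16 genes of uptake, binding and activation 7 were below 0 (median 0.05), of 16 genes of lipid droplets and triglyceride turnover 11 (-0.05), and of 4 ketone body genes 3 (-0.10), none past the threshold. With the library labelled WT vehicle replicate 1 left out, the uptake list gave 6 below 0 (median 0.11) and the lipid droplet list 8 (0.0037). Of 22 regulators 18 were below 0, with a median of -0.17 and none past the threshold. Ppara, the nuclear receptor that drives these genes, measured 15.8, 42.1 and 48.3 CPM in KO ifetroban and 21.3 and 18.8 CPM in KO vehicle, against 54.6 and 64.5 CPM in WT ifetroban and 20.8 and 47.1 CPM in WT vehicle. Its 4 lowest libraries were the negative-slope ones, and its genotype change was -0.76 ± 0.30 (edgeR, adjusted p = 0.254). The coactivator gene Ppargc1a measured -0.31 ± 0.11 (edgeR, adjusted p = 0.208), with 74.3 to 103.5 CPM in KO and 101.4 to 113.3 CPM in WT. Acacb, the acetyl-CoA carboxylase that makes malonyl-CoA at the mitochondrion, measured 192.2 to 254.5 CPM in the 4 negative-slope libraries and 358.7 to 399.2 CPM in the other 5, with a genotype change of -0.44 ± 0.19 (edgeR, adjusted p = 0.295). With the slope set as a term the genotype changes were -0.25 ± 0.13 for Ppara, -0.19 ± 0.08 for Ppargc1a and -0.13 ± 0.07 for Acacb, none past the threshold (edgeR, adjusted p = 0.334, 0.242 and 0.377).

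Summed levels of several lists of cell type markers differed between genotypes. The 14 cardiomyocyte markers summed to 71550 to 77450 CPM in KO ifetroban and 68760 to 72710 CPM in KO vehicle, against 83670 to 85240 CPM in WT ifetroban and 82320 to 83100 CPM in WT vehicle, with no overlap between genotypes. Their median log2 change under vehicle was -0.15, with 13 of 14 below 0 and none past the threshold, beside -0.28 for the 31 genes. In the library labelled WT vehicle replicate 1 the median deviation of these markers was 0.328, against -0.169 to 0.127 in the other 8, and without it their median vehicle change was 0.040, with 5 of 14 below 0. Over both treatments their median was -0.12 with 11 of 14 below 0, and without that library -0.011 with 8 of 14 below 0. The sum weighs the most abundant markers most, unlike these medians. The 9 macrophage markers summed to 506.0 to 540.7 CPM in KO ifetroban and 491.5 to 549.4 CPM in KO vehicle, against 238.2 to 320.2 CPM in WT ifetroban and 290.2 to 325.6 CPM in WT vehicle, and 7 of 9 rose over both treatments (edgeR). Of 8 fibroblast markers, summing to 1921 to 2717 CPM in KO ifetroban, 2530 to 2711 CPM in KO vehicle, 1829 to 2003 CPM in WT ifetroban and 1643 to 1933 CPM in WT vehicle, 3 rose, Col1a1, Col1a2 and Col3a1.

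Adipocytes also express many of these genes. Of 8 adipocyte markers 7 were in the tables, and they summed to 1.73 to 4.23 CPM in KO ifetroban and 3.86 to 4.56 CPM in KO vehicle, against 0.4845 to 1.124 CPM in WT ifetroban and 0.2565 to 1.01 CPM in WT vehicle. Adipoq was at 0 in both WT groups, and Adrb3 in WT vehicle. Of 2 adipocyte markers tested 1 rose over both treatments, Cfd, by 2.58 (edgeR, adjusted p = 0.0445). The 8 endothelial markers, whose cells express Cd36, summed to 796.5 to 947.6 CPM in KO ifetroban and 777.6 to 836.7 CPM in KO vehicle, against 913.6 to 930.0 CPM in WT ifetroban and 739.8 to 993.8 CPM in WT vehicle, and KO overlapped WT within each treatment. The 8 skeletal muscle markers summed to 1.08 to 1.85 CPM, except for up to 28.7 CPM in KO ifetroban, with Myh4 and Pvalb at 0 in both WT groups, and 3 of 4 atrial markers to 0.667 to 1.97 CPM. The part of these cell types in the levels of the 31 genes was not tested.

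RefSeq promoter windows, 250 bases before to 50 bases after a start, were found for 25 of the 31 genes (28 windows). The letters AGGTCA, the core bound by nuclear receptors such as PPAR-alpha and the oestrogen-related receptors, stood on either strand in 5 windows (17.86%), those of Acadm, Acadvl, Cd36, Cpt1a and Echs1, against 16.26% of 32851 windows of all genes. The direct repeat of these letters with 1 base between (a PPAR response element) and the extended letters TCAAGGTCA stood in 0 windows on either strand, against 0.03957% and 0.4231% of all, and both longer forms contain AGGTCA. The Acadm window (GRCm38.p6, chr3:153944594-153944893, minus strand) is shown for a member with no overlap between genotypes whose medium-chain enzyme is a textbook target of these receptors. Acadvl also had no overlap and AGGTCA in its window, and binding by these receptors was not tested. In the Acadm window TGACCT, the reverse complement of AGGTCA, stands in capitals 249 bases before the start.
Acadm promoter: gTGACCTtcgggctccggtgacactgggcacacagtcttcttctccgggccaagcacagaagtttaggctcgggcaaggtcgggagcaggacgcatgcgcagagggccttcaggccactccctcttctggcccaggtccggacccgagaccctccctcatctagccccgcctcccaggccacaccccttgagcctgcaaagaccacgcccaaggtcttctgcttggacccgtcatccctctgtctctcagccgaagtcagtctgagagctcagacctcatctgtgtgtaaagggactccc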

How the data were processed

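RNA-seq of mouse left ventricle was deposited as 1 table of expected counts per library with 20634 genes each. The authors made the expected counts with bcl2fastq, STAR and Partek on the mm10 build, per the submitters' processing notes, with no versions given. The annotation, the counting rule and the use of strand are not stated there or in the labels, and 28.2% of the deposited values are not whole. Of 19670 gene symbols shared with GENCODE M21, 15551 have the same start and end once 1 is subtracted from the deposited end, and gene ends are printed with it subtracted.

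Counts were rounded to whole numbers, filtered with filterByExpr (minimum count 10), scaled by TMM and tested in edgeR 4.0.16 (R 4.3.3) with the robust quasi-likelihood test over 15549 genes, with Benjamini-Hochberg adjustment and a threshold of 0.05. A model of the 4 groups gave the effects within groups and the interaction, and an additive model those over both treatments or genotypes. The SE is the absolute log2 change divided by the square root of F. Levels are TMM-scaled CPM, and CPM per kilobase uses the length of the annotated coding transcript. The fits were tested on simulated counts drawn independently, without length slopes or an outlying library, so that test does not cover these features.

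Alternatives were DESeq2 1.42.0 (tool and size factors), limma-voom 3.58.1, no filter, a stricter filter of 1 CPM, protein-coding genes, only the groups compared, a replicate block, KO ifetroban replicate 1 as vehicle, the slope set as a term or each set alone, an offset per gene and library from splines (4 degrees of freedom) on length and GC content, and each library left out. Summing a gene with its near-identical copy was added after seeing the data. The members and lists were chosen with earlier results of these data known. Levels in every library are given for the 3 members with the largest change in each group comparison, for Cpt1a, Cpt1b, Cd36, Lpl, Slc27a1, Acadm, Hadha and Etfdh, and, named after their values were seen, for Etfb and Eci1. Of the other genes Ppara, Ppargc1a and Acacb are always named. Promoters are from RefSeq (GRCm38.p6), and copies were compared in GENCODE M21 transcripts (GRCm38).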

Additional observations from a re-analysis of the deposited data

Results flagged for a closer look

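In 7 of the 31 genes the library labelled WT vehicle replicate 1 stood apart from the other 3 WT libraries by Dixon's criterion, as the highest of the 4 each time. Fabp3 measured 1562 CPM there, against 870.6 to 897.2 CPM in the others, and Hadhb 785.0 CPM, against 499.7 to 518.0 CPM. Both have a near-identical copy. Acadl measured 950.2 CPM (others 782.9 to 793.9 CPM), Eci1 260.1 CPM (177.1 to 191.0 CPM) and Acot13 224.1 CPM (141.7 to 148.9 CPM). Cd36 measured 1429 CPM (1324 to 1341 CPM) and Eci2 123.6 CPM (93.35 to 95.93 CPM). In all, 62 groups of values were examined, and chance alone marks about 1 in 20 such groups. This library is the 1 WT library with a negative length slope, the part of which in these values was not tested.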

How the results depend on the processing

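The count of members past the threshold was 0 in all 7 comparisons and stayed 0 in 143 recomputed values. The 5 exceptions were 2 members under vehicle with the slope set as a term, and, over both treatments, 7 with DESeq2's Wald test, 2 with KO ifetroban replicate 1 counted as vehicle, 2 with the slope set as a term and 10 with the length and GC offset, all lower in KO. Of the log2 changes recomputed for the genes given by library, 2238 moved by less than 1 SE, 112 by more, and 18 passed the threshold, all lower in KO than in WT. No called value changed sign.

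The median log2 change of the members moved by less than the spread between libraries in 141 recomputed values and by more in 7. With the length and GC offset it was -0.18 in KO against WT under ifetroban and -0.26 over both treatments. For ifetroban in KO it was -0.054 with KO ifetroban replicate 1 counted as vehicle and 0.15 with the slope set as a term, and for the interaction it was 0.076 with that library counted as vehicle. Leaving out 1 library at a time gave -0.34 to -0.18 under vehicle and 0.10 to 0.26 for the interaction, the weaker end of each with the library labelled WT vehicle replicate 1 left out. The cause of these shifts was not tested.

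Over all genes, the 8 calls under vehicle became 144 with DESeq2, 18 with no filter, 5 with only the groups compared, 28 with KO ifetroban replicate 1 as vehicle, 118 with the slope term, 290 in the negative-slope libraries alone, 33 with the offset and 2 to 15 with 1 library left out. The 6 calls under ifetroban became 290 with DESeq2, 19 with no filter, 10 with only the groups compared, 59 with the offset, 143 with the slope term, 60 from the positive-slope set and 2 to 15 with 1 library left out. Over both treatments the 363 calls became 896 with DESeq2, 803 with the offset and 51 to 475 with 1 library left out. For ifetroban in KO there were 28 in the negative-slope libraries alone, and over both genotypes 2 with DESeq2.

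Deviations from the group means correlated across genes at -0.06 to 0.50 between same-numbered libraries. In a group of 2 libraries the deviations mirror each other, so these values cannot decide whether the numbers mark pairs. The numbers were not taken as pairs. The 0.50 was between the library labelled WT vehicle replicate 1 and KO ifetroban replicate 1, which both have a negative slope. With the replicate block 0 members were called in any comparison, the vehicle median was -0.27, and the calls over all genes were 56 under vehicle, 172 under ifetroban, 1 for ifetroban in KO and 550 over both treatments.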
